A study of Mus musculus with 10 samples.

Results

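RNA-seq values of 9 complement genes were compared between libraries with and without an Arid1a deletion, in sorted mouse prostate epithelium and in the mouse prostate cancer line Myc-CaP. The genes were taken by symbol: C1qa, C1qb, C1qc, C3, C4b, Cfb, Cd55, C3ar1 and C5ar1. All 9 had a row in both tables, of 48897 rows in each. The epithelium came from C57BL/6 mice 3 months old, as cells that stained for EpCAM and not for CD45. The genotype of the 3 control libraries (A, B and C) names no Arid1a deletion, and that of the 3 libraries labelled Arid1a KO holds Arid1aPC-/-. The mice behind all 6 were genetically engineered, controls too, so no library was wild type. Arid1a was deleted by a Cre under the probasin promoter, which acts in prostate epithelium and not in the leukocytes or stroma around it. From Myc-CaP cells (FVB background) came 2 empty vector libraries and 2 Arid1a KO libraries, the knockout made by CRISPR with a lentiviral guide. Their labels describe the cultured line, while the study also sequenced cells sorted from Myc-CaP tumours, so growth in culture is read from the labels.

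Complement is a cascade of plasma and tissue proteins that tags surfaces for uptake and calls in leukocytes. C1q, built from the products of C1qa, C1qb and C1qc, starts the classical pathway and is made mostly by tissue macrophages. C4b and C3 are cleaved and bind covalently to targets, Cfb (factor B) joins cleaved C3 in the amplifying convertase of the alternative pathway, and Cd55 is a membrane protein that takes convertases apart on the cell's own surface. C3ar1 and C5ar1 are the receptors of the small fragments C3a and C5a, carried mainly by myeloid cells. Epithelia and fibroblasts can also make C3, C4 and factor B, and factor B and C3 are classical targets of NF-kB and C/EBP factors.

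The C1q chain genes lie side by side on the minus strand of chromosome 4 (GRCm38, GENCODE M21), between 136880129 and 136898803. C3 (chr17:57203970-57228136), Cfb (chr17:34856374-34862518) and C4b (chr17:34728380-34743882) share chromosome 17, and C3ar1 (chr6:122847138-122856161), C5ar1 (chr7:16246743-16259540) and Cd55 (chr1:130439027-130462744) lie apart. RefSeq promoters on GRCm38.p6 were matched for 6 of the 9 genes (C1qb, C1qc, C3, C3ar1, C5ar1 and Cd55). The 250 bases before the RefSeq start follow for C1qb, C3 and C3ar1. The locus of C1qb moved as a group. Of the 9 genes, C3 was the 1 called in Myc-CaP, and C3ar1 changed most in the epithelium. Bases in capitals match GAGGAA, the core bound by the myeloid factor PU.1, in C1qb, and TTGCNNAA, a C/EBP motif, in C3.
C1qb (chr4:136886201-136886450, minus strand): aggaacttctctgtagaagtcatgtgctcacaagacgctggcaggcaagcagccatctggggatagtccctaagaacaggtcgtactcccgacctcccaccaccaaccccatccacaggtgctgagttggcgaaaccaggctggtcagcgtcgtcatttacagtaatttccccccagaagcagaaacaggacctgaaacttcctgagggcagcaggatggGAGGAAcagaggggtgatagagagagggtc
C3 (chr17:57228137-57228386, minus strand): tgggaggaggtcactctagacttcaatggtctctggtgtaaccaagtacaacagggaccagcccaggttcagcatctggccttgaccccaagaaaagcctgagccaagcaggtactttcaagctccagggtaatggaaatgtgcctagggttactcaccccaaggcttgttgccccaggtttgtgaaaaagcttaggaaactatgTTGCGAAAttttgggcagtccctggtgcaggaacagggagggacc
C3ar1 (chr6:122856158-122856407, minus strand): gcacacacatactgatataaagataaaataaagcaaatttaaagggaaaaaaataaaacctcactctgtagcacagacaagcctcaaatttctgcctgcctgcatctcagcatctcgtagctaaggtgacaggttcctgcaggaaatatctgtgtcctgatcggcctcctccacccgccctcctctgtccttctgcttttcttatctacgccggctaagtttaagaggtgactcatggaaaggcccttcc
On both strands, GAGGAA was found in 2 of the 6 promoters (C1qb at -30 to -25 and C1qc at -193 to -188 from the start) and in 23.3% of the 32851 promoters of the table. TTGCNNAA was found in C3 alone (-45 to -38) and in 9.56% of promoters, the NF-kB consensus in C1qc alone (-41 to -32) and in 7.25%, and the interferon-stimulated response element (GAAA, any 2 bases, GAAA) in 0 of the 6 and in 2.98%. Positions count from the RefSeq start, which differs from the M21 start in some genes. The M21 gene of C1qc ends at 136893065, inside its window (136892915 to 136893164), and covers the NF-kB match. The windows of C5ar1 and, by a few bases, C3ar1 also reach into their M21 genes. The matches describe letters in these windows and were not tested as binding sites.

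Some facts of the libraries bear on all values. Arid1a was not lower in the epithelium libraries labelled Arid1a KO (28.8 to 31.1 RPKM, reads per kilobase of gene, scaled to the mapped reads) than in the controls (21.9 to 27.8 RPKM), so its level goes against the label, and directions given for the Arid1a KO libraries rest on the label alone. The value sums the whole gene, exons outside the deleted part included. In Myc-CaP it was lower (39.5 and 40.3 against 60.5 and 61.0 TPM, reads per length scaled to 1 sum in every library). Despite the sort, the epithelium libraries held leukocyte RNA: Ptprc, which encodes CD45, had means of 28.6 RPKM in the controls and 57.3 in the Arid1a KO libraries, and Epcam 304 and 201. Other markers of both kinds went the other way. Cd52 of the leukocyte list had means of 344 and 161 RPKM, and the keratins Krt5 and Krt14 rose, from 302 to 762 and from 146 to 799. Genes of the seminal vesicle summed to 19411 to 21910 RPKM in the controls and 647 to 1631 in the Arid1a KO libraries. Estimated depth was 28.8 to 36.2 in units of 1e+06 mapped reads in the epithelium, with control B the deepest, and could be given in Myc-CaP only as a ratio of at most 1.15 between libraries.

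In the epithelium the complement genes did not move as 1 group. The C1q genes, Cfb and both anaphylatoxin receptors rose with the Arid1a KO label, while C3, C4b and Cd55 did not pass the test. All 9 passed the filter on low values (a mean of at least 0.5), and 6 were called higher and 0 lower at an adjusted p under 0.05 (limma on log2(RPKM + 1), Benjamini-Hochberg over all genes). Of the 16275 genes tested in this table, 57.1% were called, 27.5% higher and 29.6% lower. The 9 genes had a median log2 fold change of 0.47, beside -0.03 for all genes tested. Groups did not overlap for the same 6 genes, all higher, as for 66.7% of all genes tested, 32.4% higher. When each library was rescaled to the same sum, the median of all genes moved to 0.13 and the share of calls that were higher from 48.1% to 64.6%, and the 6 genes were called higher and 0 lower as before. Nothing in the labels ties each library to a separate animal, so p-values measure the spread between libraries, and an exact permutation test of 3 against 3 could not go below 0.1.

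**Figure D1:**
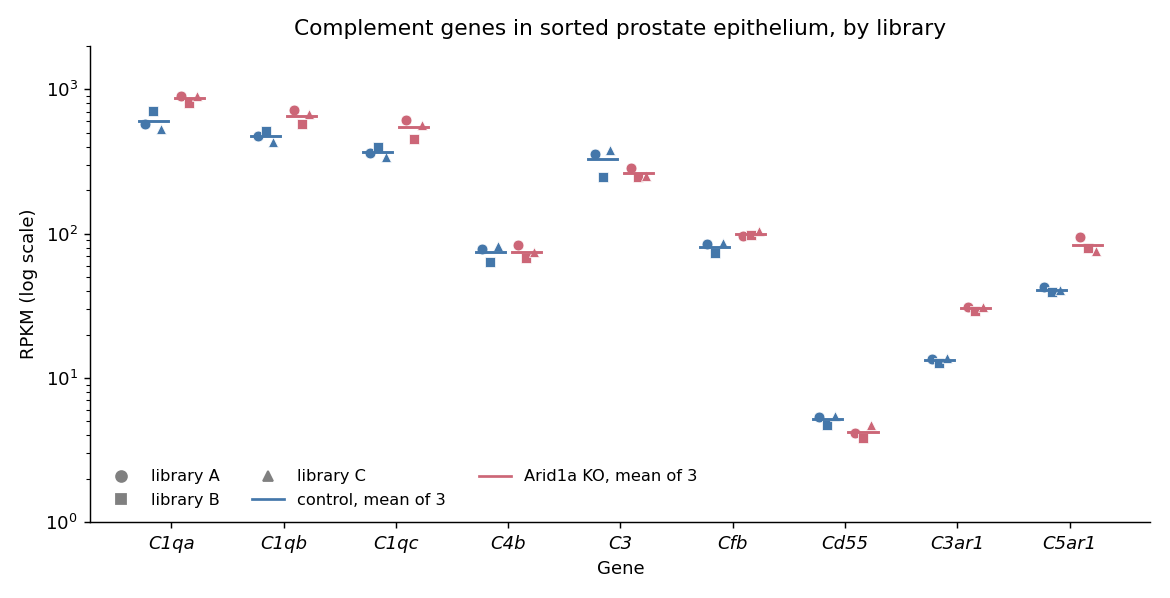
RPKM of the 9 genes (log axis) in each of the 3 control and 3 Arid1a KO libraries of sorted epithelium, with a line at each group mean. The groups are separate for C1qa, C1qb, C1qc, Cfb, C3ar1 and C5ar1, and overlap for C3, C4b and Cd55.

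The C1q genes were among the most abundant transcripts of these epithelial libraries, ranking 64, 106 and 131 by mean RPKM of the 16275 genes tested. C1qa measured 573, 712 and 528 RPKM in controls A, B and C and 905, 801 and 897 in the Arid1a KO libraries. C1qb measured 473, 512 and 431 RPKM in the controls and 725, 577 and 670 in the Arid1a KO libraries. C1qc measured 359, 397 and 341 RPKM in the controls and 614, 456 and 568 in the Arid1a KO libraries. In all 3 genes every Arid1a KO library was above every control, and the groups came closest between control B, the highest control, and Arid1a KO B, the lowest of its group. The log2 fold changes were 0.53 ± 0.13 (SE) for C1qa, 0.47 ± 0.11 for C1qb and 0.57 ± 0.13 for C1qc, with limma adjusted p-values of 0.0096, 0.00905 and 0.00634. All 3 were past the test in every alternative setting run, leaving out any library included, and quantile normalization raised C1qa to 0.81 and C1qb to 0.73. The chain genes also stayed in similar proportions to each other. C1qb stood at 0.72 to 0.82 of C1qa over the 6 libraries and C1qc at 0.56 to 0.68, and the groups overlapped in both ratios. The genes whose centred log2 profiles over the 6 libraries lay nearest to that of C1qa were Spata5l1, Donson and Psca (root mean square distance 0.058 to 0.059), a description over libraries of the same 2 groups.

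Other genes of the classical pathway went the other way. The proteases that C1q carries are encoded in the mouse by C1ra, C1rb, C1s1 and C1s2, pairs of close paralogs that may share reads, which makes the value of any 1 of them uncertain. C1ra fell from 45.8 ± 9.8 (SD, n = 3) to 18.2 ± 1.9 RPKM (log2 fold change -1.27, limma adjusted p = 0.000454). C1rb was the lowest of the whole list by fold change, at 11.4, 9.36 and 12.0 RPKM in the controls and 0.258, 1.66 and 1.92 in the Arid1a KO libraries (-2.47, adjusted p = 0.000409). C1s2 fell by 1.21 on the log2 scale, from a mean of 2.82 to 0.668 RPKM (limma adjusted p = 0.00278). All 4 proteases were called lower, as were 29.6% of all genes tested. No Arid1a KO library reached a control in any of the proteases, as for 34.4% of all genes tested. C1q and its proteases, parts of 1 complex, thus had opposite directions in the same libraries.

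C4b, which carries the cascade from C1 to C3, did not pass the test. It measured 78.3, 63.2 and 81.5 RPKM in the controls and 82.8, 68.1 and 74.4 in the Arid1a KO libraries. On the log2 scale the change was 0.02 ± 0.11 (SE, 95% interval -0.25 to 0.28, limma adjusted p = 0.897). Its sign was not stable, since it turned to -0.09 without control B and to -0.05 without Arid1a KO A. The paralog C4a, annotated as a processed transcript, was listed at 0.396 to 0.693 RPKM in the controls and 0.380 to 0.888 in the Arid1a KO libraries (limma adjusted p = 0.534), and how reads were split between the pair was not tested. C2, the protease that pairs with C4b, was named here after its values were seen and fell from 26.4 ± 1.7 (SD, n = 3) to 16.7 ± 0.8 RPKM (-0.63, limma adjusted p = 0.000277).

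C3, the central component that all pathways cleave, ranked 215 by mean RPKM and did not pass the test. It measured 357, 248 and 379 RPKM in the controls and 286, 249 and 251 in the Arid1a KO libraries. The groups overlapped through control B, which lay below every Arid1a KO library while controls A and C lay above them. The log2 fold change was -0.30 ± 0.16 (SE, 95% interval -0.68 to 0.07, limma adjusted p = 0.143), and without control B it was -0.49 with an adjusted p of 0.00332. It shrank to -0.13 after rescaling to the same sum (limma adjusted p = 0.569) and to -0.17 after quantile normalization (adjusted p = 0.464). Control B was also the lowest control for C4b, Cfb, Cd55, C3ar1 and C5ar1 and the highest for the C1q genes. 

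Cfb, the alternative pathway's protease, rose slightly. It measured 84.3, 74.0 and 85.6 RPKM in the controls and 96.4, 98.7 and 104 in the Arid1a KO libraries, and every Arid1a KO library was above every control. The log2 fold change was 0.29 ± 0.08 (SE, limma adjusted p = 0.0126), and 0.47 after rescaling to the same sum. Its neighbour C2 lies 85 bases away on the same strand and fell, as given above. A read-through gene annotated across Cfb (Gm20547) has no row in the tables, and how its reads were counted is not known. Cfp (properdin), which stabilises the same convertase, was named after its values were seen and rose from 61.8 ± 3.9 (SD, n = 3) to 120 ± 2.1 RPKM (0.95, limma adjusted p = 4.66e-05).

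Cd55 was the least abundant of the 9. It measured 5.39, 4.70 and 5.42 RPKM in the controls and 4.16, 3.84 and 4.70 in the Arid1a KO libraries, and Arid1a KO C lay just above control B, so the groups overlapped. The log2 fold change was -0.24 ± 0.09 (SE, 95% interval -0.45 to -0.02, limma adjusted p = 0.0566). It passed the test as lower under quantile normalization (adjusted p = 0.0403), without control B (0.0322) and without Arid1a KO C (0.0324), and shrank to -0.10 after rescaling to the same sum (limma adjusted p = 0.475). Its paralog Cd55b was listed at 0.123 to 0.167 RPKM in the controls and 0.0204 to 0.199 in the Arid1a KO libraries, under the filter. Cd55 overlaps an antisense gene, Gm16083, and the study's methods state strand-specific mapping.

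Of the 9 genes, the receptors C3ar1 and C5ar1 changed most. C3ar1 measured 13.5, 12.7 and 13.6 RPKM in the controls and 31.0, 28.9 and 30.9 in the Arid1a KO libraries. C5ar1 measured 42.5, 39.3 and 41.0 RPKM in the controls and 95.6, 79.7 and 76.1 in the Arid1a KO libraries. In both genes the lowest Arid1a KO library was above the highest control. The log2 fold changes were 1.13 ± 0.06 (SE, limma adjusted p = 1.69e-05) for C3ar1 and 1.01 ± 0.09 (adjusted p = 0.000122) for C5ar1. C5ar2, the second C5a receptor next to C5ar1 on chromosome 7, was named after its values were seen and rose from 1.61 ± 0.07 (SD, n = 3) to 3.86 ± 0.30 RPKM (0.90, adjusted p = 0.00012). C3ar1 and C5ar1 were the only members past the thresholds named in the study's methods (at least 1.5-fold, with p under 0.05 before adjustment), which 24.8% of all genes tested passed. That count of 2 became 5 after rescaling or quantile normalization and 4 without control B or without Arid1a KO B.

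**Figure D2:**
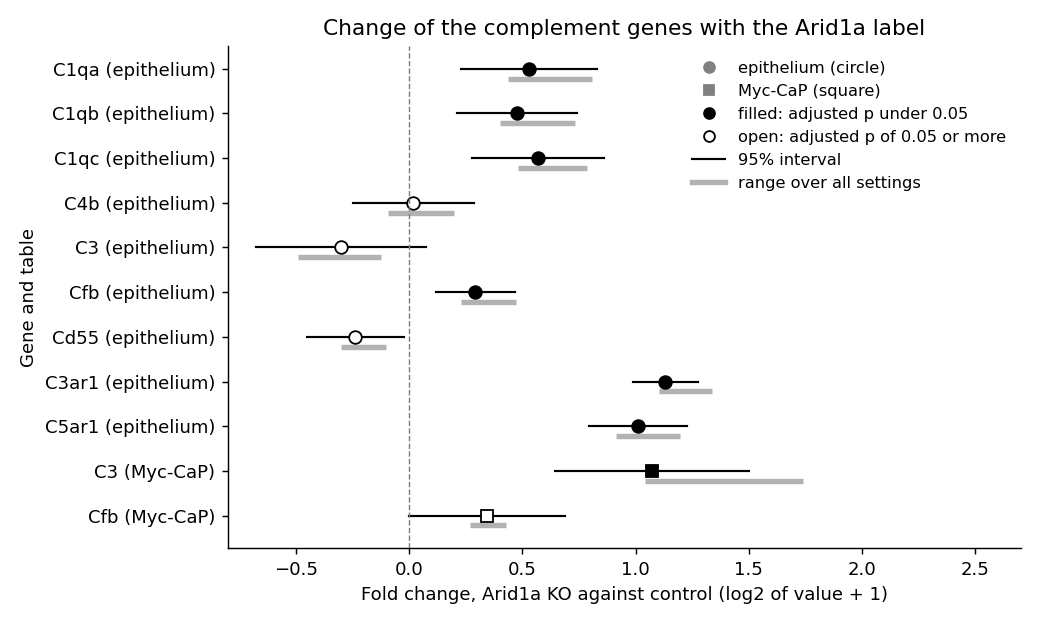
Log2 fold change (Arid1a KO against control, log2 of value + 1) of each gene tested, with its 95% interval (thin line) and the range over all settings run (grey bar). C3ar1 and C5ar1 in the epithelium and C3 in Myc-CaP lie near 1, the C1q genes between 0.47 and 0.57, and the bar of C4b spans 0.

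Markers of macrophages moved with these genes. All 10 macrophage markers were called higher in the Arid1a KO libraries, with a median log2 fold change of 0.90. For this and the lists below, the share over all genes tested was 27.5% called higher and 29.6% lower. The macrophage markers summed to 1501 to 1599 RPKM in the controls and 3056 to 3599 in the Arid1a KO libraries. Most of this sum was Lyz2 (742 to 831 and 1713 to 2078 RPKM) and Cd14 (402 to 426 and 669 to 823). Cd163 was called with groups that overlapped (limma adjusted p = 0.0475). Csf1r, the receptor that macrophages depend on, rose from 102 ± 4.0 (SD, n = 3) to 173 ± 9.2 RPKM, Adgre1 from 42.0 ± 0.8 to 76.4 ± 7.0, and Cd68 from 84.0 ± 11 to 158 ± 23. Of the other lists, 5 of 6 leukocyte markers were called higher and 1 lower, and 4 of 8 tested neutrophil markers higher and 1 lower (Ly6g 0.409 to 1.13 and Csf3r 23.1 to 49.4 RPKM in the means). The neutrophil list summed to 421 to 580 RPKM in the controls and 766 to 1013 in the Arid1a KO libraries. Ltf made the largest rise in that sum, from 82.4 to 104 RPKM in the controls to 381 to 440. S100a8, S100a9 and Retnlg had groups that overlapped and did not pass the test, and Camp was the gene called lower. Of 5 B cell markers 4 were called higher and 0 lower, with a median of 0.89 and a sum of 125 to 140 RPKM in the controls and 430 to 751 in the Arid1a KO libraries. Most of that sum was Ighm (115 to 130 and 419 to 731 RPKM), and Cd79b did not pass the test. Of 6 T cell markers 3 were called higher, and of 6 dendritic cell markers and 5 endothelial markers 1 each, with 0 lower in all 3 lists. In bulk RNA, more cells of a type and more RNA per cell cannot be told apart, and the part of these cells in the complement values was not tested.

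Set against Csf1r in the same library, a comparison chosen after the values were seen, the C1q genes and the receptors parted. The ratio of C1qa to Csf1r was 5.39, 7.21 and 5.26 in the controls and 5.08, 4.94 and 5.05 in the Arid1a KO libraries, so C1qa was lower relative to Csf1r while higher in RPKM. C1qb was lower too (4.30 to 5.18 against 3.56 to 4.06), and for C1qc the groups overlapped (3.38 to 4.02 against 2.82 to 3.44). The ratio of C3ar1 to Csf1r was 0.127 to 0.136 in the controls and 0.174 to 0.179 in the Arid1a KO libraries. That of C5ar1 was 0.398 to 0.409 in the controls and 0.429 to 0.536 in the Arid1a KO libraries. Both receptors were thus higher relative to Csf1r, though against Csf3r, a neutrophil gene, the groups overlapped for C5ar1 (1.73 to 1.80 and 1.46 to 1.85).

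**Figure D3:**
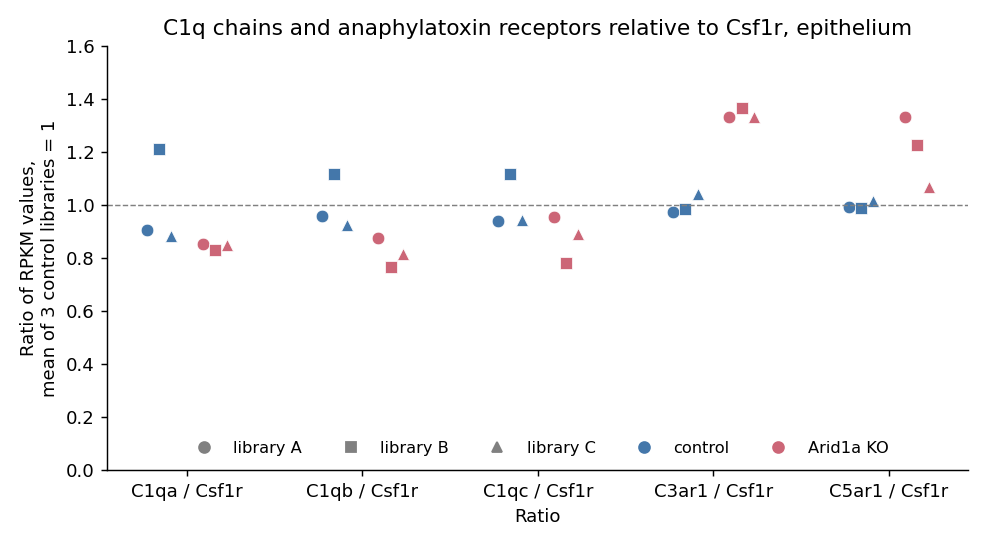
Ratio of each gene's RPKM to that of Csf1r in the same epithelium library, scaled so that the mean of the 3 controls is 1. C1qa and C1qb lie below the controls in all 3 Arid1a KO libraries, C1qc overlaps, and C3ar1 and C5ar1 lie above.

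Fibroblast and epithelial markers were split. Of 6 fibroblast markers, 3 were called lower (Dcn, Lum and Pdgfra) and 0 higher, and their sum was 1683 to 2456 RPKM in the controls and 1401 to 1971 in the Arid1a KO libraries. Dcn fell from 500 ± 69 (SD, n = 3) to 147 ± 5.0 RPKM, while Col1a1, Col1a2 and Col3a1 did not pass the test. Of 6 epithelial markers, 2 were called higher (Krt5 and Krt14) and 2 lower (Epcam and Krt18). Krt8 (means of 859 and 875 RPKM) and Cdh1 did not pass the test. The epithelial list summed to 2247 to 2742 RPKM in the controls and 3117 to 3456 in the Arid1a KO libraries. Krt5 rose from a mean of 302 to 762 RPKM and Krt14 from 146 to 799, so the rise of the sum is not one of all epithelial markers. The part of these cells and of the seminal vesicle RNA in the values of C3, C4b and Cfb was not tested.

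The wider list of complement genes held 51, the 9 included, of which 34 passed the filter on low values in the epithelium. Of these, 13 were called higher, 12 lower and 9 not, with a median log2 fold change of -0.05, in a table where 57.1% of all genes tested were called. Without the 9 genes, 7 of 25 were called higher and 12 lower, with a median of -0.30. All 6 receptors tested were called higher, and of the 5 regulators in fluid tested 4 were called lower and 0 higher. In the classical pathway 3 of 10 were called higher, all of them C1q genes, and 5 lower. Of 4 genes of C3 and the alternative pathway 2 were called higher and 0 lower, while the lectin and terminal pathways had 1 higher and 1 lower each of 3 tested. Of 3 membrane regulators tested 1 was called lower.

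**Figure D4:**
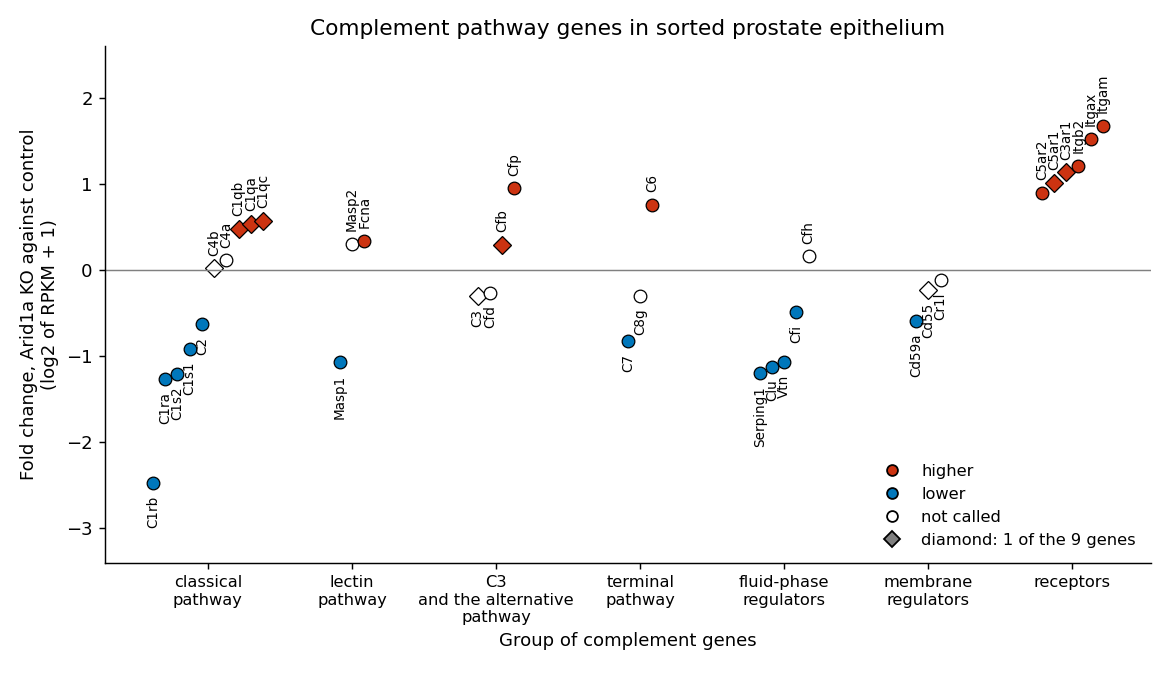
Log2 fold change of the 34 complement genes tested in the epithelium, by group, coloured by call at an adjusted p under 0.05, with the 9 genes as diamonds. All 6 receptors lie above 0, 4 of 5 fluid-phase regulators are called lower, and the classical pathway is split between the C1q genes and the C1r and C1s genes.

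Integrin subunits led the rises among the receptors. Itgam (CD11b), which pairs with Itgb2 as complement receptor 3, was at 30.1, 22.6 and 28.5 RPKM in the controls and 97.2, 82.1 and 84.7 in the Arid1a KO libraries (log2 fold change 1.67, limma adjusted p = 4.66e-05). Itgax (CD11c), which pairs with Itgb2 as complement receptor 4, rose from 23.5 ± 1.6 (SD, n = 3) to 69.4 ± 2.6 RPKM (1.52), and Itgb2 from 51.8 ± 5.9 to 121 ± 13 (1.21). These integrins are also general adhesion molecules of myeloid cells and are not particular to complement. Among the regulators, Serping1, the inhibitor of C1r and C1s, was at 295, 234 and 336 RPKM in the controls and 149, 119 and 107 in the Arid1a KO libraries (-1.20, adjusted p = 0.000682). Clu (clusterin), which binds the terminal complex and is also a general chaperone, ranked 7 of all genes tested and fell from 4164 ± 448 (SD, n = 3) to 1932 ± 451 RPKM (-1.13, limma adjusted p = 0.00174).

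In Myc-CaP most of these genes were not seen. C1qa, C1qc, Cd55, C3ar1 and C5ar1 were listed at 0 TPM in all 4 libraries. C1qb was listed at 0 in 3 libraries and at 0.114 TPM in Arid1a KO 1, about what 1 read was worth (0.111 TPM). C4b was at 0.120 and 0.0907 TPM with the empty vector and at 0.0635 and 0 in the Arid1a KO libraries, or an estimated 5.96, 3.97, 2.98 and 0 reads. Some leukocyte genes were near 0 and others were not. Ptprc was at 0 in 3 libraries and 0.0441 TPM in empty vector 2, and Csf1r at 0 to 0.0599 TPM, while Cd52 of the leukocyte list was at 3.14 to 5.44 TPM. Of the 10 macrophage markers 2 were tested, Cd14 at 6.70 to 10.2 TPM and Cd68 at 0.823 to 1.90 TPM, and of the neutrophil markers 0 were tested. C3ar1 and C5ar1, which changed most of the 9 genes in the sorted epithelium, thus had no value above 0 in the cell line.

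C3 was the 1 gene of the 9 called in Myc-CaP, of 2 tested (C3 and Cfb), in a table where 6.43% of the 13974 genes tested were called, 4.54% higher and 1.89% lower. It measured 0.679 and 0.722 TPM with the empty vector and 2.65 and 2.50 TPM in the Arid1a KO libraries, which correspond to an estimated 30.6, 28.5, 112 and 97.9 reads. The ratio of the means was 3.68. C3 also passed the study's thresholds, as did 6.28% of the genes tested, 4.62% in the higher direction. The log2 fold change, which the pseudocount of 1 holds down at such levels, was 1.07 ± 0.17 (SE, limma adjusted p = 0.0315), and with a pseudocount of 0.1 it was 1.74. The call was lost without a filter on low values (adjusted p = 0.0931) and without any 1 of the 4 libraries (adjusted p 0.158 to 0.181), while the fold change stayed at 1.04 to 1.10 without any of them. Leaving out a library also cut the calls over all genes from 899 to between 47 and 76.

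Cfb, at 3.30 and 2.86 TPM with the empty vector and 4.15 and 4.18 in the Arid1a KO libraries, was higher in both Arid1a KO libraries without passing the test (0.34 ± 0.13, 95% interval -0.001 to 0.69, limma adjusted p = 0.228). The groups did not overlap for C3 and Cfb, both higher, as for 51.5% of all genes tested (24.9% higher and 26.6% lower), and an exact permutation test of 2 against 2 could not go below 0.333. Of the 51 listed genes 9 were tested and C3 alone was called. The other 7 were C1ra, Masp2, Cfp, C8g, Serping1, Clu and Cr1l, with log2 fold changes from -0.38 (Masp2, limma adjusted p = 0.124) to 0.46 (C1ra, adjusted p = 0.193).

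Markers in Myc-CaP bear on these values. Epcam was listed at 0 TPM in 3 libraries and at 0.128 in Arid1a KO 2, so the epithelial label of the line is not seen in this gene. Krt8, a luminal keratin, was at 1.07 and 0.790 TPM with the empty vector and 40.3 and 38.8 in the Arid1a KO libraries. Collagen values followed the library number, with Col1a1 at 0.211 and 0.347 TPM in the libraries numbered 1 and 19.4 and 7.45 in those numbered 2. C3 did not follow that split, since both Arid1a KO libraries were above both empty vector libraries.

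**Figure D5:**
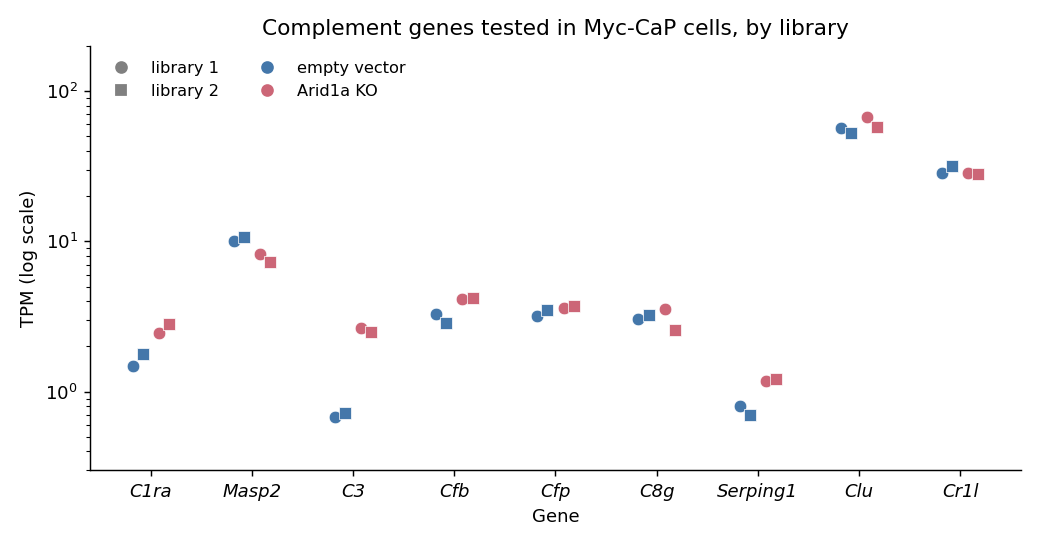
TPM (log axis) of the 9 complement genes tested in Myc-CaP, in 2 empty vector and 2 Arid1a KO libraries. The C3 libraries are the most widely separated by group, at 0.679 and 0.722 against 2.65 and 2.50 TPM, while C8g and Cr1l overlap.

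Side by side, C3 had fold changes of opposite sign in the 2 systems, at -0.30 in the epithelium without passing the test and 1.07 in Myc-CaP. Cfb was at 0.29 and 0.34, called in the epithelium alone. The tables were normalized separately and in different units, so neither difference between the systems was tested.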

How the data were processed

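Total RNA of 10 samples was sequenced. Per the study's methods, reads were mapped strand-specifically to GRCm38 with TopHat2 and counted with HTSeq-count, whereas the submitters' processing notes list HISAT2, HTSeq, DESeq2 and mm10, and the sources used here do not settle which made the files. The authors deposited the epithelium as RPKM values and Myc-CaP as TPM values, with no gene lengths. RPKM leaves differences in RNA composition between libraries, and TPM scales all genes to 1 sum, so a few abundant genes can shift the rest. Neither is a count, so no count model was used. All 10 samples were grouped by the genotype label.

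Values were taken as log2(value + 1). Genes with a mean of at least 0.5 in a table were fitted per table with limma 3.58.1 (R 4.3.3, eBayes with trend), 2 groups, no covariate, two-sided, with Benjamini-Hochberg adjustment over all genes tested and a threshold of 0.05. The study's thresholds (p under 0.05, at least 1.5-fold) were applied to the same fit. Depth and reads were estimated from the steps between low values with GENCODE M21 exon lengths (62.2% of rows matched), so they are approximate and no counting interval is given. Promoters came from RefSeq (GRCm38.p6).

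The 9 genes, the gene lists and the alternatives were chosen with earlier results of these data known. Named were the 9 genes, C4a and Cd55b, Arid1a, 7 markers, the 3 nearest profiles of C1qa (those of C3 and part of the genotype are not reported here), and up to 5 further list genes per direction called with a log2 fold change of at least 1. Others are said to be named after their values were seen, as were the further markers and the Myc-CaP genes other than C3 and Cfb. Alternatives were a pseudocount of 0.1, no filter or a mean of at least 5, eBayes without trend, rescaling, quantile normalization, a replicate block and leaving out each library. The fit was tested on simulated data.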

Additional observations from a re-analysis of the deposited data

Results flagged for a closer look

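Of the wider list of 51 complement genes, C1ra, Serping1 and Clu had opposite directions between the systems. Every Arid1a KO library was below every control in the epithelium and above every control in Myc-CaP. Of all genes tested, 34.4% were separated as lower in the epithelium and 24.9% as higher in Myc-CaP. In Myc-CaP, Clu was at 56.9 TPM in empty vector 1 and 57.6 in Arid1a KO 2, and Serping1 rested on an estimated 12.6 to 22.7 reads per library. C1ra had a log2 fold change of -1.27 in the epithelium and 0.46 in Myc-CaP (limma adjusted p = 0.193). Serping1 was at -1.20 and 0.33 (adjusted p = 0.389), and Clu at -1.13 and 0.18 (adjusted p = 0.358). The epithelium values were called lower and the Myc-CaP values were not called. The tables were normalized separately, so these differences between the systems were not tested.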

How the results depend on the processing

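In the epithelium the count of 6 genes called higher held under every alternative, with 0 to 2 called lower. C4b changed sign without control B (-0.092) and without Arid1a KO A (-0.0528), within -0.092 to 0.0888 when 1 library was left out. Genes past the study's thresholds numbered 5 after rescaling, 5 after quantile normalization and 2 to 4 when 1 library was left out. Calls over all genes fell to 5872 with a mean of at least 5, where 9027 genes were tested. In Myc-CaP, with limma, 0 of the 9 genes were called without a filter and 0 when any 1 library was left out, with 1 at an unadjusted p under 0.05 in each. With a mean of at least 5 none of the 9 was left to test. Of the wider list, 0 were called without a filter (2 at an unadjusted p under 0.05), 0 with a mean of at least 5 (1) and 0 when any 1 library was left out (1 to 2). Calls over all genes in Myc-CaP, 899 as reported, were 358 without a filter, 451 without trend and 47 to 76 when 1 library was left out, where the lone sample is assumed to vary like the other group. The Arid1a call in Myc-CaP was lost without any 1 library (adjusted p 0.0984 to 0.111). In the epithelium Arid1a passed as higher in 5 settings (adjusted p 0.0133 to 0.0465).

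The replicate block moved calls over all genes in Myc-CaP to 2771 and left the 1 complement call, and in the epithelium gave 8823 calls over all genes, 6 of the 9 and 25 of the wider list. Deviations of epithelium libraries correlated at -0.06 to 0.04 with the same letter and at -0.08 to 0.08 with different letters, so they are not treated as pairs. In Myc-CaP the values were 0.19 with the same number and -0.19 with different numbers. With 2 libraries per group these values mirror each other, so they cannot decide whether the Myc-CaP libraries are pairs. The main fit did not pair them. The causes of the shifts in calls were not tested. Values resting on 5.96 estimated reads or fewer limit what can be said of C1qb and C4b in Myc-CaP.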

Other observations

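Among complement genes under the filter on low values in the epithelium, 5 of 17 had groups that did not overlap, 15 of the 17 having a value above 0 in any library, and of all 17538 such genes with a value above 0 the share was 19.3%. They were named after their values were seen and were not tested. Vsig4, a complement receptor of resident macrophages, was at 0.118, 0.346 and 0.358 RPKM in the controls and 0.642, 0.703 and 0.800 in the Arid1a KO libraries. Hc, which encodes C5, was at 0.156, 0.195 and 0.352 RPKM in the controls and 0.454, 0.654 and 0.541 in the Arid1a KO libraries. C4bp, a fluid-phase inhibitor of C4b, went the other way (0.371 to 0.598 against 0.0521 to 0.144), as did Cd59b (0.298 to 0.414 against 0.0848 to 0.0948) and Colec11 (0.293 to 0.717 against 0.0862 to 0.292).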
